A study of Mus musculus with 8 samples.

Results

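The loops described here are the short contacts of RNA polymerase II (Pol II) in mouse embryonic stem cells without KLF4. They are the entries of the pooled KLF4-KO contact file that join 2 different anchors, carry at least 2 paired-end tags (PETs) and have anchor midpoints less than 20 kb apart. In all, 6893 loops met the rule, of 30928 KO entries with different anchors and at least 2 PETs (22.3%). They held 64221 of the 162889 PETs in those entries (39.4%). PET number and length chose the loops, so both are given below as a description and without a test.

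The study compared unmodified (WT) and KLF4-KO E14 cells, a line of mouse embryonic stem cells from the blastocyst, by RNA-seq and by HiChIP against Pol II. HiChIP ligates chromatin ends that lie close together in the nucleus, pulls down the DNA bound by 1 protein and reads both joined ends as a PET. All groups share 1 culture description, which the labels give in 2 versions: 15% serum with 10 ng/mL LIF, 1 µM PD0325901 (a MEK inhibitor) and 3 µM CHIR99021 (a GSK inhibitor), and 15% serum with 1000 U/mL LIF. RNA-seq comprised 2 WT libraries and 2 KO libraries, lettered B and F. HiChIP comprised 2 replicates per genotype, which the authors merged into 1 file each. The sources used here do not say whether the KO libraries came from 1 edited clone.

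KLF4 is a zinc finger transcription factor that binds GC-rich promoters and enhancers and belongs to the network that keeps embryonic stem cells in the naive state. Pol II gathers at active promoters and enhancers and travels along transcribed genes, so a Pol II HiChIP contact can join a promoter to an enhancer, a promoter to another promoter, or places within a transcribed gene. Contacts at such short range also include the frequent encounters of any neighbouring pieces of 1 chromatin fibre.

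Klf4 itself checked the labels, with 2882 and 2421 counts in WT against 0 and 0 in KO. Total gene counts ranged from 8287497 to 9762190 per library. The stem cell markers Pou5f1, Nanog, Sox2, Esrrb, Zfp42, Dppa5a and Tdgf1 had between 4262 and 29898 counts in every library. Of 6 fibroblast or feeder markers, Col3a1, Dcn and Lum had 0 or 1 count in every library and the highest value was 82 counts of Thy1 in KO library B. Of the neural progenitor markers, Sox1 had 35 to 63 counts and Neurog2 0 or 1. Nes had 258 and 294 counts in WT against 70 and 50 in KO, and Pax6 1 and 0 against 55 and 26. The part of such cells in the RNA results was not tested. The KO contact file held 236805 PETs between different anchors and the WT file 23586, a 10.0-fold difference in depth. Each genotype has 1 pooled file, so no contact value has a replicate error. The 95% intervals given for PETs (exact Poisson) and for shares (exact binomial) cover counting error only, and PETs carry no molecular identifiers.

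The promoters of 6 genes are printed first, because loops that start there recur in the results below. Each is the 250 bases before a listed start of the gene in RefSeq, 5′ to 3′ on the gene's own strand, in build GRCm38.p6. Pou5f1 (chr17:35505782-35506031, plus strand) encodes the pluripotency factor OCT4 and starts 3 short loops. Zbtb45 (chr7:13009853-13010102, minus strand), a zinc finger gene, lies at 1 end of the short loop with the third highest PET count. Slc3a2 (chr19:8713898-8714147, minus strand), an amino acid transporter subunit, and Snhg1 (chr19:8723237-8723486, plus strand), a host of small nucleolar RNAs, have listed starts at the 2 ends of 1 loop. The Slc3a2 span, chr19:8706882-8723369, runs into the Snhg1 anchor, so this listed start is internal and both anchors overlap Slc3a2. The histone genes H4c6 (chr13:23551669-23551918, minus strand) and H1f3 (chr13:23554782-23555031, plus strand) start within the same anchor, which 4 short loops share. Capitals mark 4 motifs on either strand: GGGNGTGGC, a KLF-type motif, the GC box GGGCGG, the TATA box TATAAA and the CCAAT box CCAAT.
Pou5f1: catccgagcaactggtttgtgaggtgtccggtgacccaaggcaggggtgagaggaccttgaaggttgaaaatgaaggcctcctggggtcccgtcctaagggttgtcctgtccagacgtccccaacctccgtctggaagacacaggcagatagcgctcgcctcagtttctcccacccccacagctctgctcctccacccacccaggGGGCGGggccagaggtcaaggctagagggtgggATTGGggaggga
Zbtb45: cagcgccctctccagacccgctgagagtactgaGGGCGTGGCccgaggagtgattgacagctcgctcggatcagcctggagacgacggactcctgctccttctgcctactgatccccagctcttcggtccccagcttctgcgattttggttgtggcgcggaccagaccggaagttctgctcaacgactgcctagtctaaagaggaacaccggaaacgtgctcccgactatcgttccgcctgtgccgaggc
Slc3a2: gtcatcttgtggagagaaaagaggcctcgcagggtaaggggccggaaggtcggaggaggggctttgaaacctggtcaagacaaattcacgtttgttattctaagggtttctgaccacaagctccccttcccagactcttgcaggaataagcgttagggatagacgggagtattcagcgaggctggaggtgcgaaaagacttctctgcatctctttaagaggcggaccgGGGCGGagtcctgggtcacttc
Snhg1: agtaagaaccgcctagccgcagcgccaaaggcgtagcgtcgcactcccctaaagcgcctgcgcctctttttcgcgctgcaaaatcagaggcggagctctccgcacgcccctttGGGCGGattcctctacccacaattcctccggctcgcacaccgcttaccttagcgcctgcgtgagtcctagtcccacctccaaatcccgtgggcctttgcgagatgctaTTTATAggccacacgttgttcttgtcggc
H4c6: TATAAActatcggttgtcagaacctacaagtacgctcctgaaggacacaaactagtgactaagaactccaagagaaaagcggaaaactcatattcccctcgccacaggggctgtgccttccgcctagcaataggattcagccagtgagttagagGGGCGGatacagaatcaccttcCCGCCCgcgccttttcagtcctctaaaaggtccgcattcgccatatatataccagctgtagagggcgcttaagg
H1f3: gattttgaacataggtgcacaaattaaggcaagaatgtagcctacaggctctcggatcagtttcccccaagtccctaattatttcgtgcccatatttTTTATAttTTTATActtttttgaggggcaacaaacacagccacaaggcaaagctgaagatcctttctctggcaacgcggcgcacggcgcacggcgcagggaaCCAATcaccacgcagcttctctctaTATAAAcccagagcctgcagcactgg

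Of these promoters, Zbtb45 held a KLF-type match and no GC box, whereas Pou5f1, Slc3a2 and Snhg1 held 1 GC box each and no KLF-type match. The H4c6 promoter held 2 GC boxes and 1 TATA match, which lies at the end of the window farthest from the start. The H1f3 promoter held 3 TATA matches and 1 CCAAT box. Over all starts at a short-loop anchor, the KLF-type letters were present in 7.53% (6.8 to 8.32) of 4738 promoters. The share was 7.84% (7.21 to 8.52) of 6604 starts at other KO anchors and 3.74% (3.49 to 4.0) of 21509 starts at no KO anchor. It was 5.11% of all 32851 listed starts. The GC box was found in 57.0% of promoters at short-loop anchors, 61.3% at other KO anchors, 18.6% at no KO anchor and 32.7% of all. The TATA box went the other way, with 5.95%, 5.04%, 16% and 12.4% in the same order. The CCAAT box differed little, with 34.8%, 35.8%, 33.0% and 33.8%. Median GC content was 59.6% at short-loop anchors, 61.6% at other KO anchors and 48.8% at no KO anchor, and its part in the motif shares was not tested. The motif shares at short-loop anchors were thus closer to those of other KO anchors than to those of starts without an anchor.

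Short loops were compact and often dense. Their anchor midpoints lay 2283 to 19994.5 bp apart, with a median of 10526.5 bp, and the facing edges of the anchors were separated by a median of 5958 bp. The PET count ranged from 2 to 178 with a median of 6 (quartiles 3 and 11). KO loops of 20 kb to 1 Mb had a median of 3 PETs over 23004 loops, and the 1031 loops over 1 Mb a median of 2. At least 10 PETs were carried by 2002 short loops (29.0%), which together held 65.7% of all short-loop PETs, against 6.23% of loops of 20 kb to 1 Mb. At the low end, 1068 short loops had exactly 2 PETs, and 1065 further entries under 20 kb had 1 PET and stayed outside the rule. The PET count fell with the gap between anchors, from a median of 11 for gaps under 1 kb to 4 for gaps of 10 kb or more. Across loops, Spearman's rho was -0.40 with the gap, 0.60 with the combined width of both anchors and -0.13 with the distance between midpoints. Wider anchors leave a smaller gap at the same distance, and the median PET count by that distance was 6 under 5 kb, 7 from 5 to 10 kb and 5 in both longer classes. These loops share anchors and 1 pool, so the coefficients are descriptions.

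**Figure D1:**
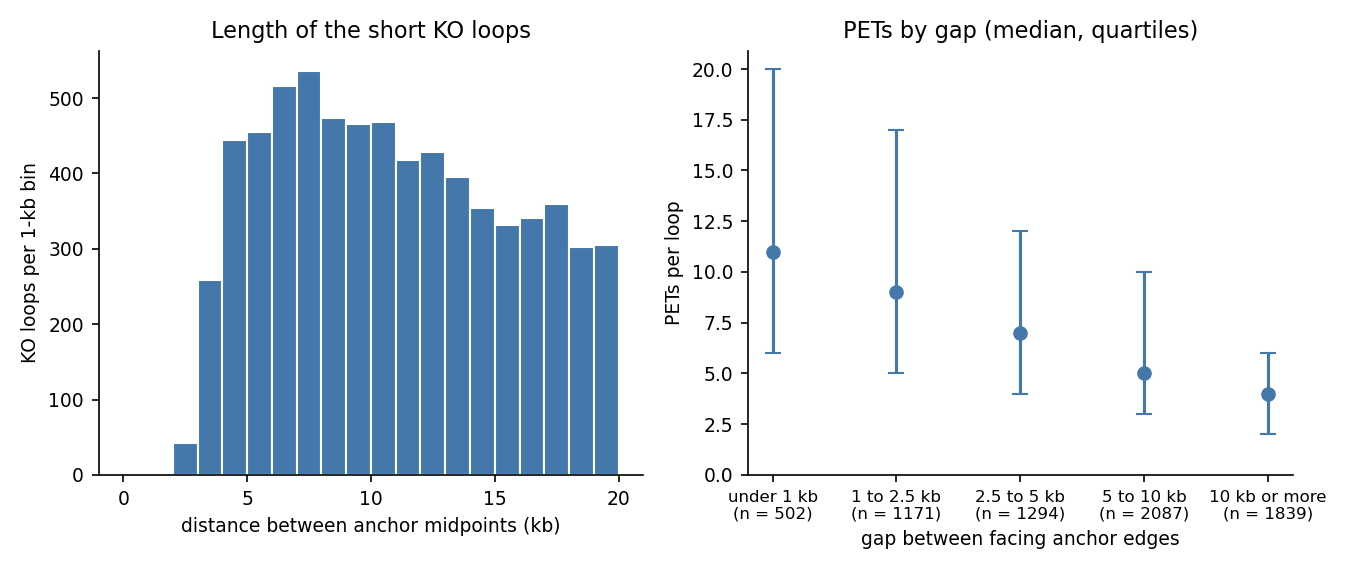
Left, number of short KO loops in each 1-kb bin of the distance between anchor midpoints (kb). Right, PETs per loop by the gap between facing anchor edges, with points for medians, bars for the lower and upper quartiles and n loops under each. The median falls from 11 PETs at gaps under 1 kb to 4 at 10 kb or more.

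The 3 longest loops under the limit were a 19994.5-bp loop at Traf3ip2 with 3 PETs, a 19982.5-bp loop in Trps1 with 3 PETs and another of 19982.5 bp in Brd1 with 10 PETs. Just outside lay loops of 20000.5 bp in Col18a1 (11 PETs), 20002 bp between the anchors of Ier2 and Nacc1 and of Nacc1 and Trmt1 (113 PETs) and 20003.5 bp on chromosome 2 (22 PETs).

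Most short loops joined anchors that follow each other along the chromosome. Of the 6893, 5487 (79.6%) had no other KO anchor between their ends, 1249 skipped 1 anchor, 149 skipped 2 and 8 skipped 3. Conversely, 80.0% of the 6863 neighbouring anchor pairs under 20 kb were short loops, 752 had 1 PET and 624 had none. The loops used 8551 of the 18293 KO anchors (46.7%), and 56.7% of those took part in 1 short loop only. Linked through shared anchors they formed 2888 chains, of which 1590 were 1 loop and 362 had 5 anchors or more. The chain with the most anchors, chr9:108489434-108636257, joined 18 anchors by 34 loops and 216 PETs. It covered 147 kb of a gene-dense stretch with Wdr6, Impdh2, Qrich1, Usp19 and Arih2. Chains of 16 and 15 anchors covered the Arid1a and Zdhhc18 region on chromosome 4 and the Akt2 and Pld3 region on chromosome 7. Chromosome 11 had the most short loops (691, or 47.7 per 100 anchors), followed by chromosome 7 (600, or 47.7). The X chromosome had 86 (21.5 per 100 anchors), with a median of 3 PETs, yet they were 38.2% of all X-linked loops against 19.5% to 27.7% on the autosomes.

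The anchors of short loops lay in a gene away from any listed start more often than at a listed start. A gene start, taken within 1000 bp of an anchor, was present at 1 or both anchors of 57.7% (56.6 to 58.9) of the short loops, against 70.3% (69.7 to 70.9) of loops of 20 kb to 1 Mb and 76.0% (73.3 to 78.6) of loops over 1 Mb. Both anchors had a start in 14.8% of short loops, 27.4% of loops of 20 kb to 1 Mb and 30.8% of loops over 1 Mb. The start table used here covers 78.0% of protein-coding and lncRNA genes, with 0% on chromosome 18, 57.9% on chromosome 15 and 68.8% on chromosome 8, so these shares are lower bounds. Both anchors fell in the same gene for 53.2% (52.0 to 54.4) of short loops and 10.4% of loops of 20 kb to 1 Mb, a share on which the length limit bears directly. Loops with both anchors inside genes but away from any listed start made up 28.1% of the short loops and 17.0% of those of 20 kb to 1 Mb. Neither anchor touched a gene in 7.20% (6.60 to 7.83) of short loops and 2.63% of those of 20 kb to 1 Mb. Counted per anchor, a start was present at 38.1% of the 8551 short-loop anchors, while 45.6% lay in a gene away from any listed start. An anchor in a gene at an unlisted start counts as away from one, so which true share is larger is not settled. A start was present at 47.1% of the 9742 other KO anchors, which were narrower (median 2759 against 3210 bp). The same order held inside the set: loops under 5 kb had a start in 46.2% of cases and loops of 15 to 20 kb in 62.4%. The median combined anchor width also differed, at 5521 bp and 7956 bp, and its part in these shares was not tested.

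**Figure D2:**
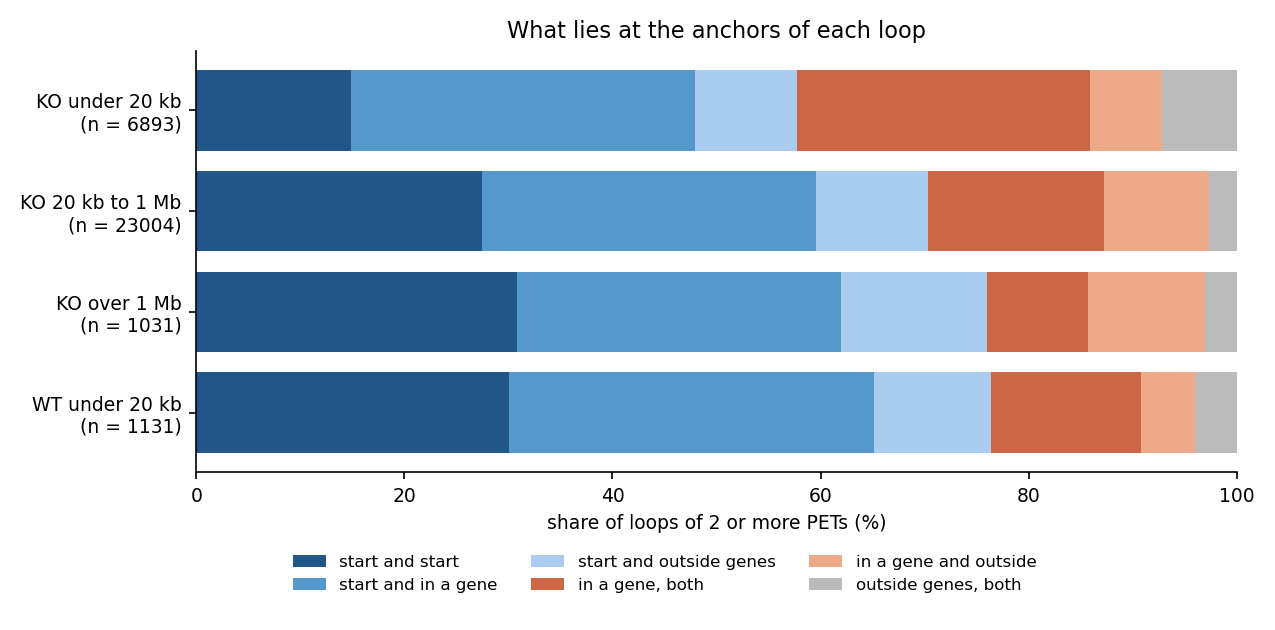
Share of loops (%) by what lies at their anchors, for KO loops under 20 kb, KO loops of 20 kb to 1 Mb, KO loops over 1 Mb and WT loops under 20 kb, all of at least 2 PETs, with n loops beside each bar. Blue classes hold a listed gene start and end at 57.7% for short KO loops, 70.3% and 76.0% for the longer KO loops and 76.4% for short WT loops.

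In loops with a gene start at 1 anchor only, the partner lay downstream of the start slightly more often than upstream. The partner was not required to lie within that gene. Of 2325 short loops with starts of 1 strand at 1 anchor and none at the other, the partner lay downstream in 53.8% (51.8 to 55.9), against 49.9% (48.7 to 51.0) of 7320 loops of 20 kb to 1 Mb. In 627 short loops (9.10%) a gene start met the end of the same gene, with a median of 7 PETs. Among the 1022 loops with starts at both ends, 221 (21.6%) joined divergent starts and 87 (8.51%) convergent ones. Loops of 20 kb to 1 Mb had 13.9% divergent and 12.6% convergent pairs. In 105 short loops (10.3%) the ends were alternative starts of 1 gene.

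The densest short loops sat at broad anchors with narrow gaps. The 20 loops with the most PETs had 92 to 178, joined neighbouring anchors in every case and had a gap under 3 kb in 18. All 20 had both anchors at least 5 kb wide, 13 had a listed gene start, and 3 were found in the WT file. The first was in Zmynd8, a reader of acetylated histones, between chr2:165855718-165869868 and chr2:165872552-165888376, with 178 PETs (152.8 to 206.2). The second joined chr2:166004404-166019327 to chr2:166019946-166036565 inside Ncoa3, a nuclear receptor coactivator, with 174 PETs. Neither loop had a WT PET. If WT anchors were listed at both ends, a count of 0 allows up to 3.69 PETs or 1.56 per 10000 WT PETs between anchors. Without them the count is 0 whatever the contact. In KO these loops held 7.52 and 7.35 per 10000. Since KO PETs chose them, the values of both pools are a description only.

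The third loop joined the Zbtb45 promoter printed above (chr7:13007967-13020284) to an anchor with the starts of Trim28, Chmp2a and Ube2m (chr7:13020959-13039789). TRIM28 is the corepressor that KRAB zinc finger proteins recruit, CHMP2A is part of the ESCRT-III membrane machinery and UBE2M conjugates NEDD8. This loop had 163 KO PETs (6.88 per 10000, 5.87 to 8.02) and 6 WT PETs (2.54 per 10000, 0.934 to 5.54). The fourth, at chr11:33524373-33545591, had no listed start, 153 KO PETs and 5 WT PETs. A loop from the anchor over Actb, the beta-actin gene, to an anchor outside genes had 97 KO PETs and 7 WT PETs. All other loops of this group had 0 WT PETs, with the same limit on a count of 0. They included Zcchc10 and Fbxo36 with 148 each and 2 loops of 119 and 97 in or beside Rbpj, the DNA-binding partner of Notch. Further down were Etnk1 (ethanolamine kinase, 109), Mllt6 to Cisd3 (104), Ubtf (a Pol I transcription factor, 95), Phc1 (a Polycomb subunit, 94) and Ncor1 with Pigl (a nuclear receptor corepressor and a GPI anchor enzyme, 92).

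By gene, with predicted genes, Rik clones and pseudogenes left out, Etl4 held the most short loops, 19 with 169 PETs over its 900.3 kb. Macf1, a cytoskeletal crosslinker, had 17 loops and 176 PETs over 338 kb, and Arih2, a ubiquitin ligase, 17 loops and 109 PETs over 50.7 kb. Ncor1 and Cfdp1 had 15 each, Fntb 13, and Bcl2l1, Actn4, Pptc7 and Msi2 12 each. Ncor1 stood out among these by PETs, with 383 in 142 kb, followed by the apoptosis inhibitor gene Bcl2l1 with 270 in 75.1 kb. In Trim71, an RNA-binding ubiquitin ligase of early development, 6 loops carried 5, 61, 91, 51, 10 and 20 PETs in order along the chromosome, and none had a WT PET.

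The pluripotency genes differed in how many short loops they had. Pou5f1 started 3: a loop of 34 PETs to chr17:35485822-35491042 on the side away from Tcf19, a loop of 28 to a Tcf19 start and a loop of 13 to an anchor with the starts of Cchcr1 and Tcf19. The loop of 28 also had 8 WT PETs (3.39 per 10000, 1.46 to 6.68, against 1.18 in KO). Nanog started 1 loop, to chr6:122726248-122728131 at Slc2a3, with 19 KO PETs (0.802 per 10000, 0.483 to 1.25) and 10 WT PETs (4.24, 2.03 to 7.8). These shares use the PETs between each pool's own anchors, 18293 in KO and 8373 in WT. WT PETs are summed over all overlapping WT entries, and the differences were not tested. Klf2 started 2 loops of 3 and 6 PETs. Klf5 lay within a 19004-bp anchor that formed 1 loop of 32 PETs, and Esrrb held 1 loop of 20 PETs away from any listed start. Contacts inside an anchor fall outside the rule, and these were many at some of the same genes. A 36483-bp anchor in Esrrb held 621 such PETs, the Nanog anchor 163 and the Klf5 anchor 142. Sox2 had 1 anchor with 47 internal PETs and no short loop. Klf4 had 1 anchor with 0 internal PETs and no short loop.

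Few short KO loops had a counterpart in the WT file, which held fewer PETs. Taking a WT entry of any PET count whose anchors overlap both KO anchors, 755 of 6893 (11%, 10.2 to 11.7) were found. The share was 7.30% (5.82 to 9.03) for loops of 2 PETs and 23.1% (15.4 to 32.4) for loops of at least 50. It also followed gene starts: 36.2% (33.3 to 39.2) of loops with a start at both anchors, 9.36% (8.34 to 10.5) with a start at 1 and 3.71% (3.05 to 4.46) with none. A WT anchor lay under both KO anchors in 983 short loops (14.3%), under 1 in 2974 (43.1%) and under neither in 2936 (42.6%). Where both anchors had one, 76.8% (74.0 to 79.4) of the loops were found. A gene start was present in 84.6% of the loops with WT anchors under both ends, 74.4% with 1 and 31.8% with none. Anchors were listed separately in each pool, 18293 in KO (67.0 Mb, median 2932 bp) and 8373 in WT (19 Mb, median 1999 bp). A loop missing from WT therefore cannot be told apart from an anchor that was not listed there or from too few PETs.

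**Figure D3:**
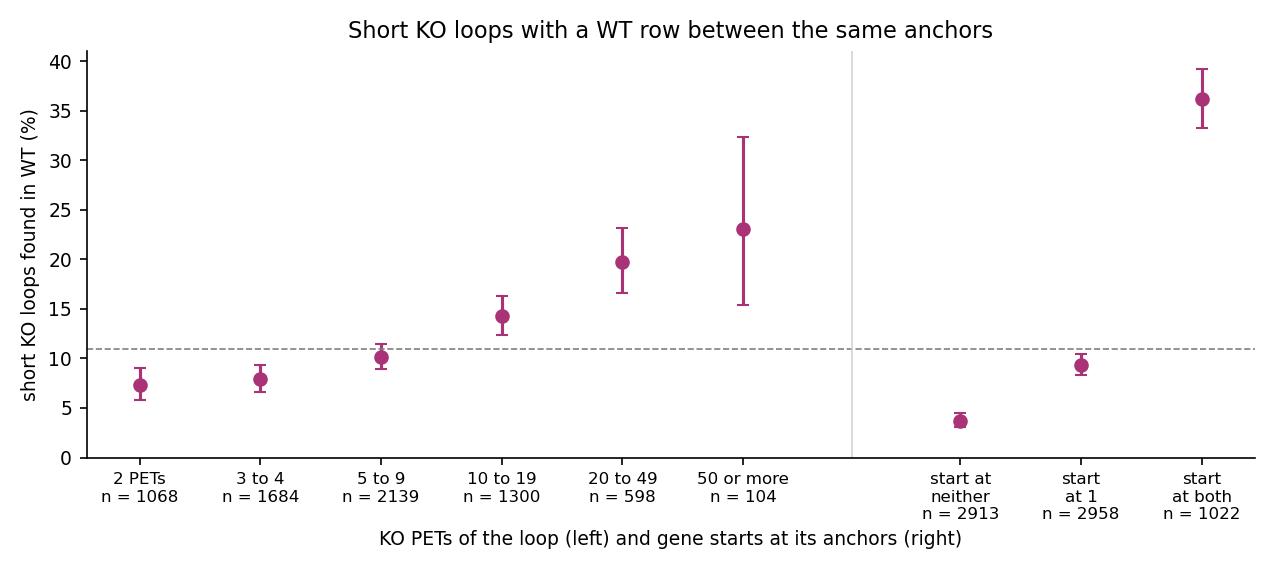
Share of short KO loops (%) with a WT entry between overlapping anchors, by the KO PETs of the loop on the left and by gene starts at its anchors on the right, with exact binomial 95% intervals and n loops. The dashed line is the share over all short KO loops, 11%. Loops with a start at both anchors stand at 36.2% and loops without a start at 3.71%.

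In the other direction, the WT file held 1131 loops of at least 2 PETs under 20 kb, and 51.2% (48.2 to 54.1) had a KO entry between overlapping anchors. In 20.2% both WT anchors lay on 1 KO anchor, so that the same contact counts as internal in KO, and 70.2% met at least 1 of these conditions. Short WT loops had a start at 76.4% (73.8 to 78.8) and at both ends in 30.1%, against 57.7% and 14.8% in KO. Entries under 20 kb of any PET count held 27.6% (27.4 to 27.8) of the KO PETs between anchors and 23.5% (23 to 24.1) of the WT PETs. With 1 pool per genotype the spread between replicates of this share is unknown.

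The 12 short KO loops with the most WT PETs, chosen after their values were seen, had 20 to 38 WT PETs and 4 to 55 KO PETs. Since WT PETs chose them, their higher share in the WT pool, which held fewer PETs, is a description only. One WT entry can overlap more than 1 of these loops. A loop within Slc2a3, the neuronal-type glucose transporter gene next to Nanog, had 38 WT PETs (16.1 per 10000, 11.4 to 22.1) and 18 in KO (0.760, 0.450 to 1.2). The loop at the start of Hnrnpab, a pre-mRNA binding protein, had 32 WT PETs and 23 in KO. The loop between the listed Slc3a2 and Snhg1 starts printed above, with both anchors overlapping Slc3a2, had 27 WT PETs (11.4 per 10000) and 55 in KO (2.32). Tmem238 to the ribosomal protein gene Rpl28 had 24 and 22.

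**Figure D4:**
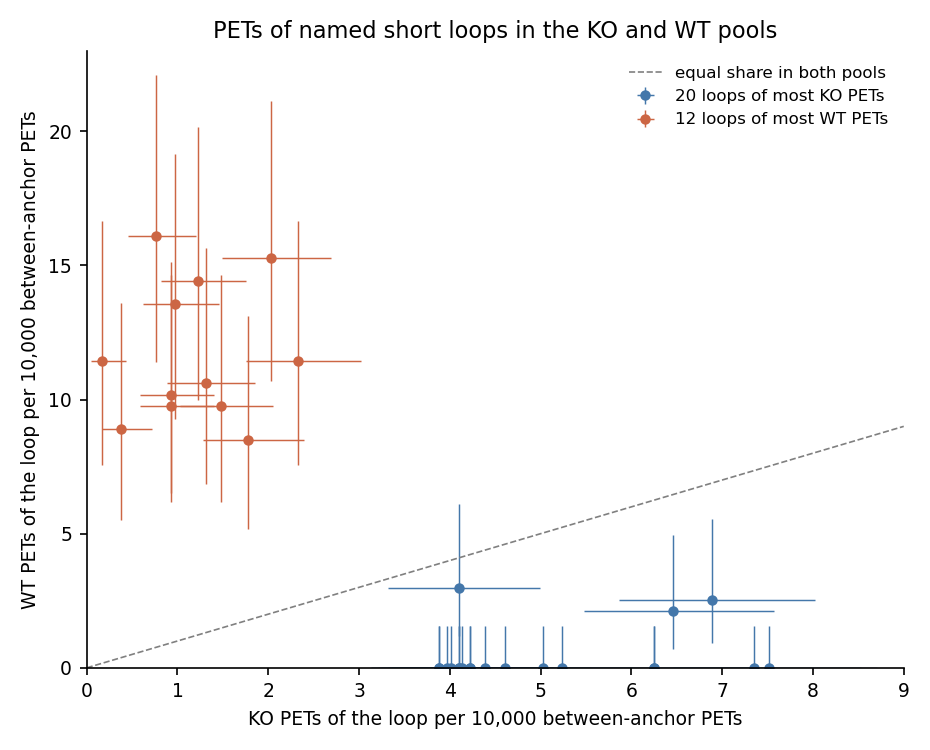
PETs per 10,000 between-anchor PETs in the KO pool (x axis) and the WT pool (y axis), with exact Poisson 95% intervals, for the 20 short KO loops of most KO PETs and the 12 of most WT PETs. Both sets were picked by 1 axis, so each lies toward that axis, and the dashed line marks equal shares.

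Of those 12 loops, 6 joined replication-dependent histone genes, which encode the bulk of new histones in S phase and lie in dense clusters. The anchor with the H4c6 and H1f3 promoters printed above formed 4 loops along its cluster on chromosome 13, with 29, 35, 79 and 31 KO PETs and 34, 23, 11 and 25 WT PETs. In all, 22 short KO loops had a histone gene start and held 414 PETs, or 0.645% (0.584 to 0.710) of short-loop PETs. The short WT loops with a histone gene start numbered 32 and held 433 PETs, or 8.82% (8.04 to 9.65). Of these WT loops, 13 had both anchors on 1 KO anchor and 17 had a KO entry, with 2 in neither class. PETs inside a histone anchor were also a smaller share in KO, with 0.577% (0.541 to 0.614) of all internal PETs against 2.55% (2.27 to 2.85) in WT. The histone share was thus lower in the KO pool both between and within anchors. Histone genes have near-identical copies, so the placing of their reads is uncertain.

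RNA levels were measured apart from the contacts and tested over all genes. Of the 3905 genes with a start at a short-loop anchor (14.4% of all with a listed start), 84.4% passed the filter on low counts, against 40.3% of all genes with a listed start. The 3300 tested genes of this kind were 30.2% of the 10913 tested genes with a listed start. Of them, 79 were higher and 133 lower in KO by edgeR's quasi-likelihood test at an FDR of 0.05, or 2.39% and 4.03%. The background was 3.04% higher and 5.39% lower (8.43% in all) over tested genes with a listed start, and 2.96% and 5.34% (8.3%) over all 15517 genes tested. In either direction the share at short-loop anchors was 6.42%, below both background values, and this difference was not tested. The 400 with at least 3 short loops gave 6.25%. Genes with a start only at loops of 20 kb to 1 Mb gave 4.83% of 2859, and those at neither gave 12% of 4754. The median log2 fold change was -0.01 at short-loop anchors and 0.01 over tested genes with a listed start. Read from the calls, a short loop was present at 23.8% (19.3 to 28.7) of higher genes, 22.6% (19.3 to 26.2) of lower genes and 30.9% (30.0 to 31.8) of genes not called. In bulk RNA, fewer cells of a type and less RNA per cell cannot be told apart.

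These counts depend on the fit. Leaving out WT replicate 1 gave 194 higher and 290 lower genes. Leaving out KO library B gave 63 and 74, and leaving out F gave 49 and 72. Without the filter on low counts edgeR called 0 of 3526, with 652 at an unadjusted p under 0.05, so every call at a short-loop start named below was lost there. DESeq2 called 128 higher and 191 lower.

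With predicted genes, Rik clones and pseudogenes left out, the 10 genes with the largest rise at short-loop anchors had between 0 and 164 counts in each WT library. Cubn, the cubilin endocytic receptor, had 0 and 0 counts in WT and 15 and 19 in KO, at least 12.5-fold higher against 3 counts over the WT group (edgeR FDR 0.0149). Zfp423, a zinc finger factor with roles in neural development, had 25 and 19 counts in WT against 184 and 306 in KO. Its log2 fold change was 3.62 ± 0.41 (SE, edgeR FDR 0.00376), and 3 short loops with 10 PETs reached its start. Dlg4, the synaptic scaffold PSD-95, had 16 and 19 against 211 and 116 (log2 fold change 3.36 ± 0.46, edgeR FDR 0.00605). Sox4, a SOX family factor, had 80 and 50 against 438 and 647, and Adam23, a cell surface protein of the nervous system, 164 and 120 against 936 and 1299 (log2 fold changes 3.21 and 3.12, edgeR FDR 0.00357 and 0.00227). For all of these both KO libraries lay above both WT libraries.

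The other 5 of the 10 lost their call when 1 library was left out. Atcayos, antisense to Atcay, had a count ratio of 29.9 (4.93 to 1225) and an edgeR FDR of 0.0941 when WT replicate 2 was left out. DESeq2 gave an adjusted p of 0.0847 with all libraries. Because the strand setting is not given, its reads cannot be told apart from those of Atcay. Ankrd34a reached an FDR of 0.0601 without KO library F, and Sp8, an SP family zinc finger factor, 0.176 without KO library B. Stra6, the retinol-binding protein receptor, had an FDR of 0.192 when KO library B was left out and 0.0587 when WT replicate 2 was. Hist1h2af (H2ac10), which has near-identical copies, had 0.152 when KO library B was left out and 0.0557 when WT replicate 1 was.

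Among lower genes, Aqp3, a water and glycerol channel, had 1396 and 1636 counts in WT and 160 and 102 in KO (log2 fold change -3.38 ± 0.31, edgeR FDR 0.00199), with 1 short loop of 10 PETs at its start. Tspan14, a tetraspanin, had 913 and 919 against 142 and 147 (-2.52 ± 0.25, edgeR FDR 0.00249). A4galt, a glycolipid galactosyltransferase, had 386 and 522 against 70 and 73, and Nynrin 834 and 514 against 42 and 84. Hmga2, an architectural chromatin protein, had 1126 and 948 against 67 and 258. Ffar3, a receptor for short-chain fatty acids, had 53 and 67 against 3 and 5, and its start lay at a loop of 50 PETs. Apobec2 had 84 and 162 against 23 and 14. Hyal3, of the hyaluronidase family, had 33 and 67 against 0 and 3, a count ratio of 30.1 (10.0 to 148). It overlaps Naa80, and reads of the overlap cannot be told apart. In all of these both KO libraries lay below both WT libraries. Ebf4 and Snx33 were also called, but their edgeR FDR rose to 0.122 and 0.0587 without KO library F, and that of Snx33 to 0.0637 without WT replicate 1. Across these 20 genes the short loops at the start held between 2 and 62 PETs.

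Most genes at the 20 densest loops did not pass the RNA test. Phc1, Rbpj, Gm19705 and Platr22 did, all higher in KO. Phc1 had 3286 and 3123 counts in WT and 7765 and 7537 in KO (2.65-fold, edgeR FDR 0.0145). Its call was lost without KO library B (FDR 0.0705) or F (0.0653). Rbpj had 2276 and 1493 against 3177 and 5096 (2.43-fold, FDR 0.0463) and lost its call without KO library F (0.342), with library totals as the only scaling (0.0669) and with a filter at a mean of 2 CPM (0.0519). The predicted gene Gm19705 and the lncRNA Platr22, at the ends of 1 loop of 124 PETs, rose 2.85-fold (FDR 0.0350) and 4.99-fold (FDR 0.0497). Their spans overlap, so their reads are uncertain. Without KO library F the FDR was 0.0653 for Gm19705 and 0.251 for Platr22; without WT replicate 1 it was 0.0524 for Gm19705, and without WT replicate 2 it was 0.151 for Platr22. DESeq2 gave Platr22 0.0656. Zmynd8 had a log2 fold change of 0.10 ± 0.25, Ncoa3 0.64 ± 0.27, Trim28 0.43 ± 0.28 and Zbtb45 0.56 ± 0.32, none past the threshold. Etnk1 was higher without WT replicate 1 (edgeR FDR 0.00919), and Ubxn2a and Atad2b were lower without WT replicate 2 (0.0322 and 0.0184). Among genes with the most short loops, Arih2 fell 2.75-fold, from 3727 and 3462 counts to 1126 and 1234 (edgeR FDR 0.0107, but 0.0954 without KO library B and 0.0734 without F). Etl4, Macf1, Ncor1, Cfdp1, Fntb, Bcl2l1, Actn4, Pptc7 and Msi2 did not pass, though Actn4 did by DESeq2 (adjusted p 0.0184), and Actn4 and Msi2 did by edgeR without WT replicate 1 (FDR 0.0336 and 0.0173).

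Gene lists were chosen with earlier results of these data known, and only members with a listed start are counted. A start met a short loop in 0 of 8 tested early neural genes, 4 of 12 immediate early and ERK feedback genes, 6 of 14 formative and primed epiblast genes and 9 of 16 core pluripotency genes. The count was 4 of 8 nuclear non-coding RNAs, 10 of 18 Pol II genes, 9 of 15 histone genes and 9 of 14 chromatin looping genes. The highest shares were 42 of 62 cytosolic ribosomal protein genes and 11 of 16 glycolysis genes. All tested genes with a listed start gave 30.2%. The lists were not matched for gene length or expression level.

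Over tested genes with a listed start, 3.04% were higher in KO and 5.39% lower. The glycolysis genes at short loops rose in most cases: 8 of 11 were higher in KO and 0 lower, with a median log2 fold change of 1.56. They were Slc2a1, a glucose importer, the pathway enzymes Tpi1, Gapdh, Pgam1, Eno1 and Pkm, and Ldha and Pdk1, which steer pyruvate to lactate and away from mitochondria. Over the list 10 of 16 rose and Hk1, a hexokinase, fell, with a median of 1.46. Pfkl and Pgk1 rose without a short loop at a listed start. Tpi1, with 4 short loops and 50 PETs, had 1251 and 1733 counts in WT and 5204 and 3583 in KO (3.26-fold, edgeR FDR 0.0147). Pkm, with 2 loops and 35 PETs, had 7867 and 8458 against 25630 and 23443 (3.33-fold, FDR 0.0107). Aldoa, with 2 loops and 46 PETs, had 7917 and 11635 against 21344 and 15424 and missed the threshold (FDR 0.0880), but passed by DESeq2 (adjusted p 0.0115) and without WT replicate 2 (FDR 0.0110). Eno1 and Gapdh lost their calls without KO library B (FDR 0.167 and 0.134), and Eno1 also without F (0.0656). Both have near-identical copies in the genome, so their counts are uncertain. At its 3 short loops Eno1 had 34 WT PETs and 33 KO PETs, whereas Tpi1 had 6 WT PETs and Pkm, Aldoa and Gapdh had 0.

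Of the formative and primed epiblast genes at short loops, 5 of 6 rose and 0 fell, beside 9 of 14 over the list. The median log2 fold change was 2.1 in both. The background was 3.04% higher and 5.39% lower over tested genes with a listed start. Dnmt3l, the regulatory partner of the de novo DNA methyltransferases, started 6 short loops with 64 PETs, the densest of 28 PETs between 2 anchors with its own starts. Its counts were 591 and 797 in WT and 4501 and 5165 in KO (7.70-fold, edgeR FDR 0.00227). Its span overlaps that of Aire, which had 27 and 29 counts in WT and 1279 and 1275 in KO, and reads of the overlap cannot be told apart. An anchor in Aire is the far end of 2 of the 6 loops. Dnmt3a, a de novo methyltransferase, had 1 loop of 11 PETs and rose 5.34-fold (FDR 0.00383). Dnmt3b had 1 loop of 2 PETs and rose 3.42-fold (FDR 0.00771). Sox4 and Zic5 also rose. Etv5, an ETS factor downstream of FGF signalling, had 1 loop of 29 PETs and 2974 and 2453 counts against 4046 and 4506 (FDR 0.0846). It passed by DESeq2 (adjusted p 0.0360) and by edgeR without WT replicate 1 (FDR 0.0465). Of the early neural genes, which had no start at a short loop, Pax6 and Dll1 rose and Nes and Sox21 fell.

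Most core pluripotency genes did not pass the test. Of the 9 at short loops, Lin28a and Utf1 were higher and Tfcp2l1, a naive state factor, was lower. Over tested genes with a listed start, 8.43% were called in either direction. Pou5f1 had 11256 and 18492 counts in WT and 14687 and 13051 in KO, with overlapping groups and a log2 fold change of 0.04 ± 0.32. Nanog had 7377 and 7115 against 5181 and 4830, with no overlap and a log2 fold change of -0.39 ± 0.25 (edgeR FDR 0.387). Tdgf1, the NODAL co-receptor, had 2 loops with 76 PETs and 4484 and 4673 counts against 7633 and 7083 (edgeR FDR 0.0800, DESeq2 adjusted p 0.0220). Fgf4 (3 loops, 61 PETs) and Zfp42 (2 loops, 50 PETs) did not pass. Klf2, with 2 short loops, had a log2 fold change of 0.12 ± 0.34. Slc2a3, which holds the loop of 38 WT PETs, had 22760 and 17219 counts against 12462 and 11714 (-0.58 ± 0.28, FDR 0.257).

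**Figure D5:**
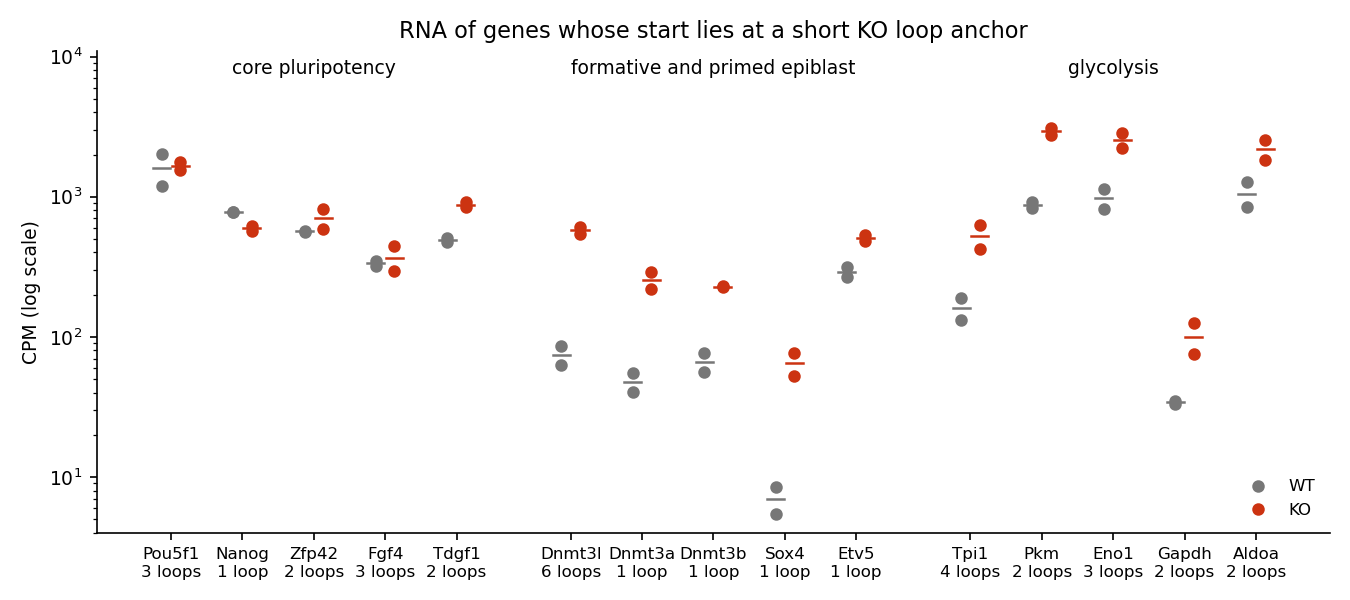
CPM (counts scaled to the TMM library size, log axis) of genes from 3 lists whose start lies at a short KO loop anchor, with grey points for the 2 WT libraries, red points for the 2 KO libraries, short lines for the means and the number of short loops under each name. CPM is not per gene length, so heights of different genes are not to be compared. Dnmt3l, Dnmt3a, Dnmt3b and Sox4 lie higher in both KO libraries, while Pou5f1 overlaps.

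In 4 further lists no gene at a short loop was called. Beside the background of 8.43%, lists of 4, 9 or 10 such genes would hold under 1 call, so the 0 of the non-coding RNA, chromatin looping and Pol II lists does not set them apart. The 43 ribosomal protein genes at short loops had 74 loops and 856 PETs, and of the 42 tested 0 were called by edgeR or DESeq2, with 2 at an unadjusted p under 0.05. Their median log2 fold change was nevertheless -0.36, beside -0.37 over the list. The WT libraries differed widely at some of these genes, such as Rplp2 (7621 and 17160 counts) and Fau (4478 and 9035). The absence of calls therefore does not show that these genes were unchanged. Without WT replicate 1, edgeR placed Rps21 and Rplp2 past the threshold (FDR 0.0374 and 0.0131), both lower. Fau led them with 4 loops and 77 PETs, and 33 of the 74 loops (44.6%) were found in WT. All short loops gave 11%, but every loop counted for a list has a gene start. Short loops with a start at both anchors gave 36.2%, and those with a start at 1 anchor 9.36%. The other lists with short loops ranged from 27.3% (chromatin looping) to 85.7% (nuclear non-coding RNA), so a share above 11% is not particular to ribosomal protein genes. The 10 Pol II genes at short loops had 17 loops, and edgeR and DESeq2 called 0, with 1 at an unadjusted p under 0.05. Polr2e, a subunit shared by the nuclear RNA polymerases, had 1 loop of 85 PETs, and Polr2a, the largest subunit, 3 loops with 37. Among the 9 chromatin looping genes, including the cohesin subunit Smc3 and the mediator subunits Med1 and Med12, both tools called 0, with 1 at an unadjusted p under 0.05. Med12 and Pds5a were higher without WT replicate 1 (edgeR FDR 0.00721 and 0.0307). Of the nuclear non-coding RNAs, Malat1 had 2 loops with 108 PETs, Snhg1 3 with 89, Snhg3 1 with 26 and Snhg12 1 with 22. None was called by edgeR or DESeq2, with 0 at an unadjusted p under 0.05, though Snhg12 was lower without WT replicate 1 (edgeR FDR 0.0241). In the immediate early and ERK feedback list, Dusp6, an ERK phosphatase, rose 4.29-fold (edgeR FDR 0.0176) with 2 loops and 16 PETs, while Junb had 7 loops with 44 PETs and a log2 fold change of 0.20 ± 0.33.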

How the data were processed

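The submitters' processing notes name HiC-Pro 2.11.4 and, also with no role stated, DESeq2 1.18.1, HTSeq 0.9.1, HISAT2 2.1.0 and build mm10. The deposited gene counts are whole reads per Ensembl gene, not normalised, and the deposited loop files hold PET counts per anchor pair, pooled by the authors per genotype. The loop caller, peaks, filters, strand setting and annotation release could not be learned from the sources used here. Rows for reads not assigned to a gene made up 64.0% to 65.5% of each library and stayed out of library sizes and tests. No column of another sample was met.

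RNA was tested in R 4.3.3 by edgeR 4.0.16 (TMM, filterByExpr, quasi-likelihood F-test, genotype only, Benjamini-Hochberg over 15517 of 52636 identifiers), with DESeq2 1.42.0 as an alternative. The labels call the replicates biological. CPM uses TMM-scaled library sizes. SE is the absolute log2 fold change divided by the square root of the F statistic of that test. Library totals are given with the results.

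Loops were placed with Python 3.11.15, pandas 2.3.3 and SciPy 1.17.1. Gene starts came from RefSeq windows on GRCm38.p6 (27025 of 34631 genes) and spans from the matching RefSeq table. Names matched 14355 tested genes. A start within 1000 bp of an anchor counted as at it.

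The loops, lists and rules were chosen with earlier results of these data known. Lists of 10 genes left out predicted genes, Rik clones and pseudogenes. Named were the 20 loops of most PETs, the 3 on each side of 20 kb, up to 5 genes per list by summed PETs, the 10 genes of most short loops, the 10 higher and 10 lower genes of largest change, and Klf4, Nanog, Pou5f1, Sox2, Esrrb, Klf2 and Klf5. Trim71, Dnmt3l, Aire, Slc2a3, Slc3a2, Hnrnpab and the called list members beyond these were named after their values were seen. Alternatives covered scaling, filters, left-out libraries, PET and length limits, anchor extension and the match to WT.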

Additional observations from a re-analysis of the deposited data

How the results depend on the processing

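No paired analysis was possible because the KO count columns carry letters and no replicate number, and each genotype has 1 pooled contact file. Of 6893 short loops, 4141 remained at 5 PETs and 3191 under 10 kb. The share with a gene start, 57.7%, became 54.1% under 10 kb, 56.5% with anchors not extended and 66.0% with an extension of 5 kb; settings chosen after seeing the data gave 60.0% without chromosomes 8, 15 and 18 and 52.7% with protein-coding genes only. The share in 1 gene, 53.2%, became 54.6% at 3 PETs, 56.6% at 5 PETs, 61.0% under 10 kb, 50.3% with the gap limit of 20 kb and 49.1% with protein-coding genes only. The share found in WT, 11%, became 13.1% at 5 PETs, 9.56% under 10 kb, 11.7% with the gap limit, 11.8% within 1000 bp and 7.27% with WT entries of at least 2 PETs. Genes called at short-loop anchors, 79 higher and 133 lower, numbered 0 and 0 without the expression filter (652 of 3526 at an unadjusted p under 0.05, edgeR), and DESeq2 called 128 higher. Leaving out 1 library gave 49 to 194 higher and 72 to 290 lower. With 1 library left in a group, its spread is assumed to equal that of the pair. Of the values of named genes under the RNA alternatives, 881 kept their side of the threshold, 64 lost a call, 18 gained one and 0 reversed. The 10.0-fold gap in PETs between anchors limits every statement on WT.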
